A study of Mus musculus with 1119 samples.

Results

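The hair germ is the small cluster of epithelial progenitors at the base of the resting hair follicle, next to the dermal papilla, and it is the compartment in which a new hair cycle starts. Hair germ cells sorted from mouse back skin at postnatal day 23 to 24 (P23-P24) were set against hair germ cells sorted at P21. The members were taken by the start of the sample titles, and cells with fewer than 2000 genes at a TPM (transcripts scaled to a fixed total per cell) of 1 or more were left out. This kept 68 of 73 cells at P23-P24 and 68 of 71 cells at P21, out of the 1119 cells of the series. The titles only carry the letters hg; the authors' annotation calls the P23-P24 cells hair germ of the earlier anagen stage, anagen being the growth phase, and the P21 cells telogen hair germ, telogen being the resting phase.

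All cells of both ages came from mice of mixed sex with the same alleles, Lgr5-eGFPiresCreER and R26-tdTomato. The Lgr5 allele places a green fluorescent protein and an inducible Cre recombinase under the control of a stem cell gene. Cells were sorted on GFP, tdTomato, integrin α6, integrin b1, CD34 and Pcadherin into 96-well plates, and each cell was amplified by the Smart-seq2 protocol and sequenced on its own. The labels name no animal, so each age counted as 1 sample, no difference had a replicate check, and no test was made. The titles give all cells of an age the same prefix and a well position, read here as a plate, so the effects of age and of plate cannot be told apart. Intervals of shares are exact binomial (Clopper-Pearson) intervals at 95% and cover the counting of cells only.

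Resting germ cells rarely divide. Entry into the cell cycle begins when E2F transcription factors are released from the retinoblastoma proteins and switch on the genes of DNA replication, among them the Mcm2 to Mcm7 helicase that is loaded at origins. Later in the cycle, a complex with Foxm1 and Mybl2 acts through a promoter element called CHR (cell cycle genes homology region) and switches on the genes of mitosis. In the follicle this entry follows WNT signals, and BMP signals oppose it.

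The sort genes and basal keratins were seen at both ages. Krt14, a keratin of basal epithelium, averaged 1469 ± 1003 TPM at P23-P24 and 1966 ± 1158 TPM at P21 (SD over 68 cells each), and Krt5, its partner, averaged 1286 ± 665 and 1460 ± 774 TPM at P23-P24 and P21. Lgr5, the receptor gene of the sort, was seen in 64 of 68 cells at P23-P24 and 63 of 68 at P21. Cdh3, which encodes P-cadherin, was seen in 67 cells at P23-P24 and 65 at P21. Cd34, a bulge surface marker, averaged 10.7 and 23.6 TPM at P23-P24 and P21, against 346.7 TPM in the 39 bulge cells of P21. Krt24, a bulge keratin, was seen in 2 cells at P23-P24 and 12 cells at P21. Values of Krt15 and Postn, also set as bulge markers, and of the integrin genes are not given in this check. Of the markers given for the activated germ, Mcm5, Uhrf1 and Cdk1 were higher at P23-P24 and Ctsl was higher at P21.

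The libraries of the 2 plates differed. Ribosomal RNA rows took a median of 64.9% of TPM (55.6 to 80.8) in P23-P24 cells and 54.3% (45.9 to 63.4) in P21 cells. The ERCC spike-ins, synthetic RNAs added to each well, took a median of 4.32% (0.522 to 12.8) at P23-P24 and 10.8% (3.63 to 20.02) at P21. The ratio of all other rows to spike-ins was 6.84 at P23-P24 and 3.13 at P21 (medians), 2.19 times as high at P23-P24. The amount of spike-in per well is not given in the sources used here. A median of 6984 genes (4839 to 8969) was seen per cell at P23-P24 and 6334.5 (4421 to 9679) at P21. A Y-linked gene without Xist was seen in 57 and 59 cells at P23-P24 and P21, both in 2 and 3 cells, Xist without a Y-linked gene in 1 and 0 cells, and neither in 8 and 6 cells. The labels give mixed sex at both ages, and few cells of either age held Xist. Cells with several markers of another cell type were few. Some single markers were seen in more P23-P24 cells, while summed melanocyte, sebaceous and differentiated epidermis markers had higher medians at P21. At least 3 fibroblast markers were seen in 2 cells of each age, 3 melanocyte markers in 1 cell at P23-P24 and 2 at P21, 3 immune markers in 1 cell at P23-P24 and none at P21, and 3 endothelial or 3 muscle and pericyte markers in no cell of either age. Differentiated epidermis markers reached 3 in 6 cells at P23-P24 and 5 at P21, and sebaceous markers in 4 and 2 cells. Col1a1, a fibroblast collagen, was seen in 22 cells at P23-P24 and 9 at P21 (a difference of 0.70 in mean log2(TPM + 1)), and Myl9, a muscle and pericyte light chain, in 34 and 21 cells (0.97). The summed level of 6 muscle and pericyte markers had a median of 2.77 TPM (0 to 470.9) at P23-P24 and 0 TPM at P21, where the highest cell was lower. Myh11 and Des were at 0 in every P23-P24 cell, and Acta2, Des, Rgs5 and Cnn1 in every P21 cell. That of 6 endothelial markers had a median of 0 at both ages, with highest values of 26.6 TPM at P23-P24 and 1.73 TPM at P21. The sums of melanocyte, sebaceous and differentiated epidermis markers had medians of 1.41, 3.5 and 20.31 TPM at P23-P24. At P21 these medians were 5.77, 22.02 and 26.45 TPM. The part of other cells in the results below was not tested beyond leaving out some cells. The cells left out held at least 3 fibroblast, melanocyte, endothelial, immune or muscle and pericyte markers.

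Differences below are of mean log2(TPM + 1), P23-P24 minus P21, over 9695 genes that at least 30% of cells of 1 age held. By this measure 1009 genes, 10.4% of those tested, were at least 1 higher at P23-P24, and 608 genes, 6.27%, were at least 1 lower, with a median of 0.00. When each cell was scaled to its spike-ins, the counts were 3777 higher and 71 lower, with a median of 0.79. When TPM was rescaled without ribosomal, mitochondrial and spike-in rows they were 1972 higher and 712 lower, with a median of 0.23. The log2 ratio of mean TPM, which weighs the highest cells more, turned the balance, with 469 higher, 1338 lower and a median of -0.37. The statements below on higher and lower genes are therefore relative to the other transcripts of the cell. Every gene list described below with a median under 0 had a median above 0 when cells were scaled to the spike-ins, and where such a list also turned relative to the median gene on that scale, this is said.

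Among the gene lists, those of DNA replication had the largest medians by this measure. As a log2 ratio of mean TPM the mitosis list had the largest median, 2.865, against 2.32 for licensing and 2.024 for the fork. The processed pseudogene row Rpl3-ps1, with a mean of 204.1 TPM at P23-P24 and 0 in every P21 cell, is described with the other observations. Of 19 genes that license and unwind origins, 17 were at least 1 higher and none at least 1 lower, with a median of 2.22. Of 26 genes of the replication fork, 25 were at least 1 higher, with a median of 2.31. Across all 7 cell cycle lists 99 genes were at least 1 higher, none was at least 1 lower, and the median of those tested was 1.78, beside 10.4% and 6.27% of all genes tested. These 99 genes were 9.81% of the 1009 called higher, and 910 called genes lay outside the lists.

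**Figure D1:**
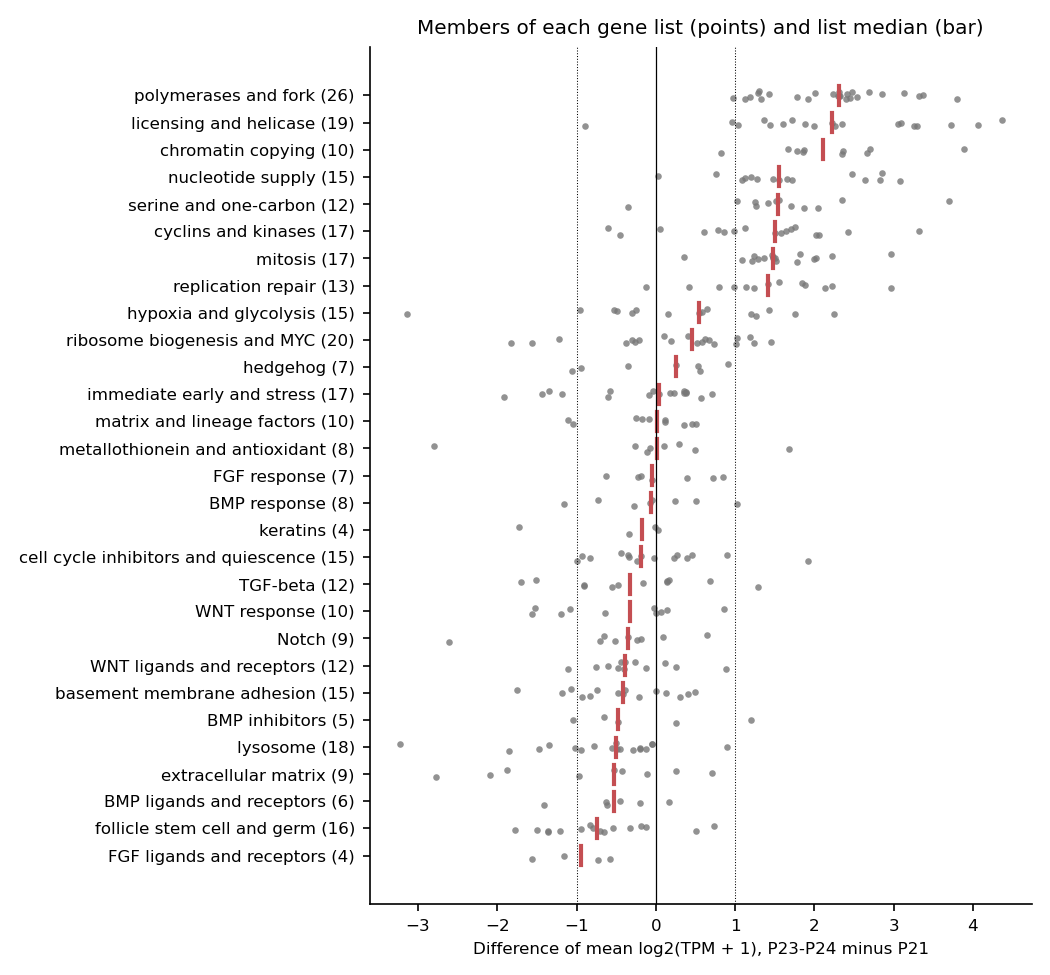
Differences of mean log2(TPM + 1), P23-P24 minus P21, for each tested member of a gene list (points, jittered vertically) and the list median (bar), with the number of tested members in brackets. Dotted lines mark a difference of 1 in either direction. The replication, repair, chromatin, nucleotide, serine, cyclin and mitosis lists stand to the right, with medians from 1.42 to 2.31, and the stem cell and FGF receptor lists to the left.

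Promoters of replication and mitosis genes are shown because the licensing and mitosis lists differ in how often they hold E2F and CHR letters. CCAAT was more frequent in both of these lists than among all promoters, and also in the other cell cycle lists and the serine list. The sequences are the 300 bases from 250 before to 50 after the start of the RefSeq gene, on GRCm38.p6, written 5′ to 3′ on the gene's strand. Capitals mark matches, on either strand, to E2F letters (TTTGGCGC, TTTCCCGC, TTTGCCGC or TTTCGCGC), to CHR letters (TTTGAA) or to CCAAT. In Mcm5 (chr8:75109259-75109558, plus strand) 2 E2F matches overlap, and 3 CCAAT matches follow:
Mcm5: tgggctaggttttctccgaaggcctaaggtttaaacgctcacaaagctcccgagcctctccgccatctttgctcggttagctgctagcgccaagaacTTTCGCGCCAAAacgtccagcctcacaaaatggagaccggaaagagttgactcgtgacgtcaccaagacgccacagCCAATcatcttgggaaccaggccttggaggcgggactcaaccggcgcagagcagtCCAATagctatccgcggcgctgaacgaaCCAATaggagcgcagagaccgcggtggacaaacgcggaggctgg
In Mcm3 (chr1:20820263-20820562, minus strand) there are 2 E2F matches, both after the start, and 3 CCAAT matches:
Mcm3: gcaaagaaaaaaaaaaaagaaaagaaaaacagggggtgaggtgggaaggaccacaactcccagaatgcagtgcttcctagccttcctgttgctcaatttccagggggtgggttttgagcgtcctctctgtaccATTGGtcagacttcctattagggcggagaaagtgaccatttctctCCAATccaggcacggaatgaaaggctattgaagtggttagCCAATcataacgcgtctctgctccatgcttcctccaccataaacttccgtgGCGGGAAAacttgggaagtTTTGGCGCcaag
In Cdk1 (chr10:69352863-69353162, minus strand) there are 1 E2F match, 2 CHR matches and 3 CCAAT matches:
Cdk1: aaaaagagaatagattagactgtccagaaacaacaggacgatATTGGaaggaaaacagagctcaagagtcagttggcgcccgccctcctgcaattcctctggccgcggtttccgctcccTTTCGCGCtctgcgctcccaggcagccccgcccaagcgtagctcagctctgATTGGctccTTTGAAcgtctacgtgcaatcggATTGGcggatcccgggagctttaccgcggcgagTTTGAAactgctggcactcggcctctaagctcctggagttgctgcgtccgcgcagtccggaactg
In Top2a (chr11:99024140-99024439, minus strand) there are 2 CHR matches, 6 CCAAT matches and no E2F match:
Top2a: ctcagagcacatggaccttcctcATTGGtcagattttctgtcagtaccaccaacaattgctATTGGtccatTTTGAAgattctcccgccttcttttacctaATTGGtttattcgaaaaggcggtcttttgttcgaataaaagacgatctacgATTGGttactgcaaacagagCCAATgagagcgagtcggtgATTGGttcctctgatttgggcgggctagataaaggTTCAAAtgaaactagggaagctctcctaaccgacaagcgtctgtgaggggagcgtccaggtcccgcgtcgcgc

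Among all 32851 RefSeq promoters of this length, 2.26% held an E2F match, 17.9% a CHR match and 37.4% a CCAAT match. Of 16 promoters of 14 matched licensing genes, 50% held an E2F match, 37.5% a CHR match and 68.8% CCAAT. Of 19 promoters of 18 matched mitosis genes, none held an E2F match, 78.9% held a CHR match and 84.2% held CCAAT. Fork genes held E2F letters in 26.9% of 26 promoters, CHR letters in 7.69% and CCAAT in 42.3%. Chromatin copying genes held E2F letters in 35.7% of 14, CHR letters in 21.4% and CCAAT in 71.4%. Nucleotide supply genes held E2F letters in none of 15, CHR letters in 6.67% and CCAAT in 53.3%. Replication repair genes held E2F letters in 33.3% of 9, CHR letters in 11.1% and CCAAT in 44.4%. Cyclin and kinase genes held E2F letters in 29.4% of 17, CHR letters in 29.4% and CCAAT in 58.8%. Serine and one-carbon genes held E2F letters in none of 14, CHR letters in 7.14% and CCAAT in 57.1%. The 17 promoters of follicle stem cell and germ genes held no E2F match, a CHR match in 5.88% and CCAAT in 23.5%. The 17 lysosome and 15 WNT response promoters held no E2F or CHR match, and CCAAT in 29.4% and 33.3%. A match is a run of letters and not a measured site.

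Mcm5, a subunit of the helicase that opens origins, ran from 0 through a median of 44.3 to 170.8 TPM at P23-P24, and from 0 through a median of 0 to 24.4 TPM at P21. It was seen in 58 of 68 cells at P23-P24 (85.3%, 74.6 to 92.7) and 6 of 68 at P21 (8.82%, 3.31 to 18.2), a difference of 4.37. The highest P21 cell stayed below the P23-P24 median, although 10 of the P23-P24 cells were under 1 TPM. Among the 6 subunits Mcm3 gave the next largest difference, 4.07, with a median of 39.5 TPM and 52 cells at P23-P24 and a median of 0 and 4 cells at P21. The other subunits were seen in more of the P21 cells: Mcm2 in 60 cells at P23-P24 and 22 at P21, Mcm4 in 60 and 18, Mcm6 in 60 and 27, and Mcm7 in 60 and 31. Their differences lay between 3.06 for Mcm4 and 3.72 for Mcm2.

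**Figure D2:**
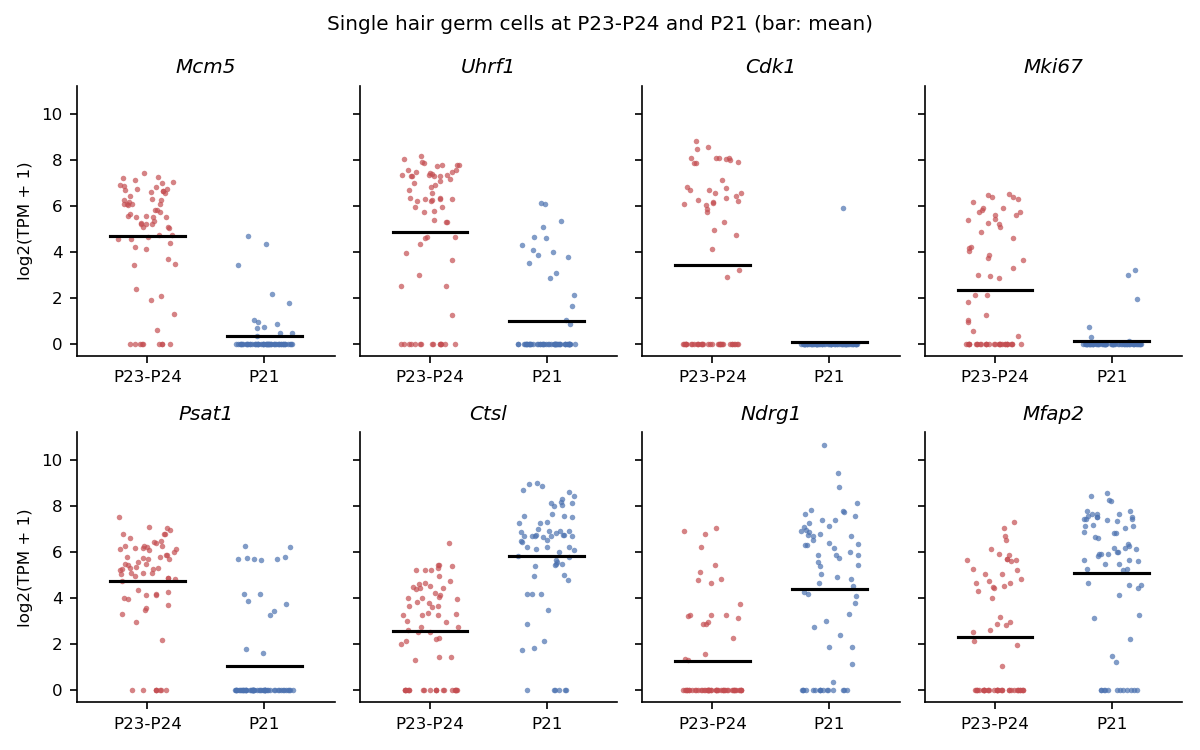
Each point is 1 hair germ cell, with P23-P24 cells left of P21 cells, on a log2(TPM + 1) axis; bars are means over 68 cells. Mcm5, Uhrf1, Cdk1, Mki67 and Psat1 are mostly at or near 0 at P21, while Ctsl, Ndrg1 and Mfap2 are seen in more cells and at higher levels at P21.

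The 6 subunits work as 1 ring, and they were also counted together in each cell. At P23-P24, 51 of 68 cells (75.0%, 63.02 to 84.7) held all 6 transcripts, while no P21 cell did (0%, 0 to 5.28). At least 4 were seen in 55 cells at P23-P24 (80.9%, 69.5 to 89.4) and 7 cells at P21 (10.3%, 4.24 to 20.1). No subunit was seen in 2 and 16 cells at P23-P24 and P21. Restricted to cells with 5000 to 8000 genes, the shares with at least 4 were 77.4% at P23-P24 and 9.84% at P21. Most P23-P24 cells thus held the whole set, and a minority of 13 cells had fewer than 4.

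**Figure D3:**
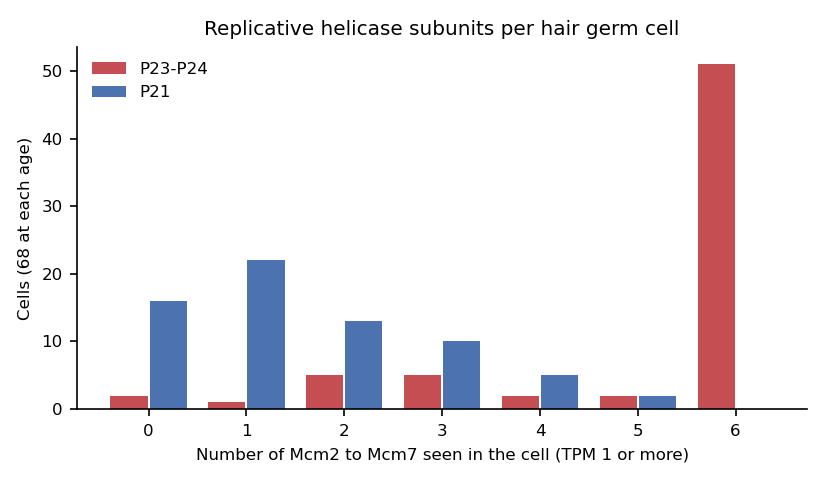
Number of cells by how many of Mcm2 to Mcm7 were seen at a TPM of 1 or more, P23-P24 beside P21. At P23-P24 the tallest bar is 51 cells at all 6; at P21 there is no cell at 6, and the 68 cells spread over 0 to 5.

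The factors that load and limit the helicase were higher with it. Gmnn, which encodes geminin, the inhibitor of relicensing, was seen in 44 cells at P23-P24 and 3 at P21, a difference of 3.10. Its partner Cdt1, the loading factor, was seen in 45 and 11 cells (2.35), and Cdc6, the other loader, in 31 cells at P23-P24 and 1 at P21 (1.61). Mcm10, which activates the loaded helicase, was listed at 0 in every P21 cell and seen in 51.5% of P23-P24 cells. The 1 licensing gene below 0 was Dbf4, the regulatory subunit of the Cdc7 kinase, which was seen in 55 cells at P23-P24 and 64 at P21, with a difference of -0.89.

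At the fork, Pold1, the catalytic subunit of polymerase delta, averaged 50.3 ± 48.8 TPM at P23-P24 and 5.11 ± 16.2 TPM at P21, a difference of 3.81. Rfc5, a subunit of the clamp loader, gave 3.37, Lig1, the ligase that joins Okazaki fragments, 3.32, Pold2 3.13 and the primase Prim1 2.85. Pcna, the sliding clamp, had a smaller difference, 2.32, and was seen in 53 of 68 P21 cells, against 66 at P23-P24, with medians of 103.9 TPM at P23-P24 and 23.5 TPM at P21. Ung, a uracil glycosylase that cleans new DNA, was seen in 47 cells at P23-P24 and 3 at P21 (3.31).

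Genes that supply nucleotides or copy chromatin followed, with 13 of 15 and 9 of 10 at least 1 higher. The median of the nucleotide list was 1.56, or 0.86 as a log2 ratio of mean TPM. Dctpp1, which removes abnormal dCTP, gave 3.08, and Dut, which keeps uracil out of DNA, 2.86. Rrm1, the large subunit of ribonucleotide reductase, gave 2.83, and the thymidine kinase Tk1 2.64. Tyms, thymidylate synthase, was seen in 63 cells at P23-P24 and 57 at P21, and its median was 42.2 TPM at P23-P24 and 4.32 TPM at P21 (2.48). It was therefore present in most cells of both ages and differed in level.

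Uhrf1, which brings the maintenance methyltransferase to newly copied DNA, ran from 0 through a median of 74.2 to 288.8 TPM at P23-P24, and from 0 through a median of 0 to 68.2 TPM at P21. It was seen in 53 cells at P23-P24 (77.9%, 66.2 to 87.1) and 17 at P21 (25%, 15.3 to 36.98), a difference of 3.90. Dnmt1, that methyltransferase, gave 2.35, the histone chaperone Chaf1b 2.70, and the remodeller Hells 2.67. Asf1b, another histone chaperone, was seen in 33 cells at P23-P24 and listed at 0 in every P21 cell. Of 13 genes that repair stalled forks, 9 were at least 1 higher (median 1.42).

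Mitosis genes divided the P23-P24 cells. Cdk1, the kinase that drives entry into mitosis, ran from 0 through a median of 7.38 to 450.4 TPM at P23-P24. At P21 it was seen in 1 cell, at 58.7 TPM. This gave 35 of 68 cells at P23-P24 (51.5%, 39.03 to 63.8) and 1 of 68 at P21 (1.47%, 0.0372 to 7.92), a difference of 3.31. Mki67, the proliferation marker, was seen in 35 and 3 cells at P23-P24 and P21 (2.22). Top2a, the topoisomerase that untangles chromosomes, was seen in 41 and 2 cells (2.97), and Birc5, a subunit of the chromosomal passenger complex, in 30 and 2 cells (2.02). Cdc20, the activator of the anaphase promoting complex, was seen in 29 P23-P24 cells and Ccnb1, the mitotic cyclin, in 23, and both were listed at 0 in every P21 cell. Of 22 mitosis genes 17 passed the 30% filter, which those at 0 in P21 could pass only through P23-P24, and 16 were at least 1 higher.

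Counted per cell, at least 8 of the 22 mitosis genes were seen in 31 P23-P24 cells (45.6%, 33.5 to 58.1) and in no P21 cell (0%, 0 to 5.28), where the highest number was 4. Just below and just above this number stood 3 P23-P24 cells with 6 or 7 genes and 3 with 8 or 9. All 31 cells also held at least 4 Mcm subunits. A further 24 P23-P24 cells (35.3%, 24.1 to 47.8) held at least 4 subunits with fewer than 8 mitosis genes, and no cell held 8 mitosis genes with fewer than 4 subunits. Of the cells with at least 4 subunits, 2 held no mitosis gene, and the division at 8 mitosis genes was set on these cells. Across the 68 P23-P24 cells the number of subunits and the number of mitosis genes had a Spearman rho of 0.61, and the number of mitosis genes and the number of all genes seen a rho of 0.77. These counts come from the same libraries.

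**Figure D4:**
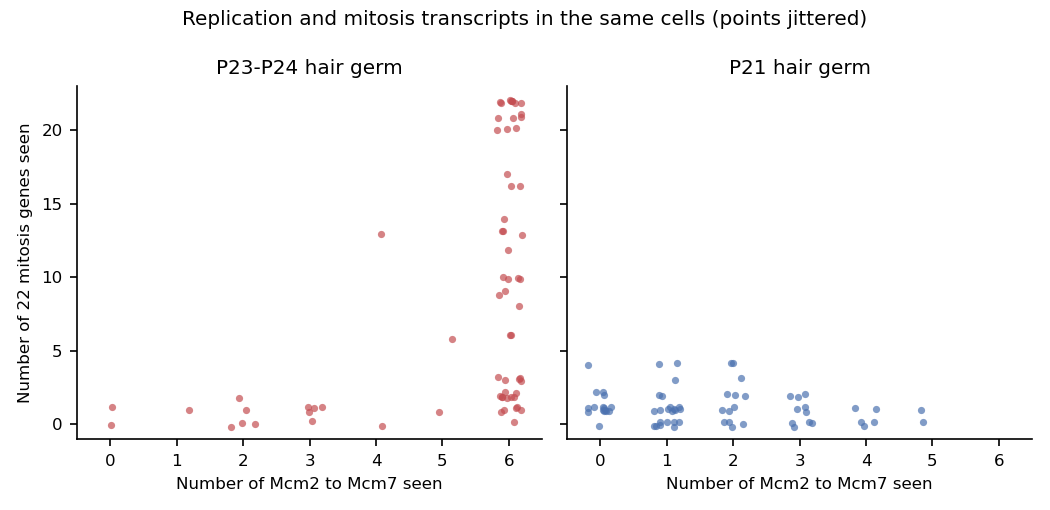
Number of the 22 mitosis genes seen in each cell against the number of Mcm2 to Mcm7 seen in the same cell, P23-P24 left and P21 right, with small jitter. At P23-P24 the 31 cells with 8 or more mitosis genes sit at 4 or more subunits; at P21 no cell has more than 4 mitosis genes.

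The cyclins and kinases of the earlier part of the cycle differed less than those of its later part. Ccnd1, the cyclin that receives growth signals, averaged 32.2 ± 28.9 TPM at P23-P24 and 44.1 ± 45.7 TPM at P21 (0.06 on the log scale), and Ccnd3 gave -0.60. Ccnd2 was seen in 62 cells at P23-P24 and 42 at P21 (1.13), with mean TPM of 66.04 and 65.49 that were nearly equal. Cdk4, their kinase, gave 0.99, and Cdk6, its relative, -0.46. E2f1, the activator of replication genes, was seen in 46 and 7 cells at P23-P24 and P21 (2.02), Ccna2, the S-phase cyclin, in 32 and 4 (2.42), Foxm1 in 33 and 1 (2.06), and Mybl2 in 33 and 5 (1.76). D-type cyclins were thus present in most P21 cells, while E2f1, Ccna2, Foxm1 and Mybl2 were seen in few of them.

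Of 15 tested inhibitors and quiescence genes, 1 was at least 1 higher and none at least 1 lower, with a median of -0.19. The higher one was Rbl1, which encodes p107, a retinoblastoma family member, seen in 49 cells at P23-P24 and 10 at P21 (1.92). Cdkn1b, which encodes the kinase inhibitor p27, had a median of 5.25 TPM at P23-P24 and 13.8 TPM at P21, with a difference of -0.99, just short of the call. Foxo3, a quiescence factor, gave -0.83, and the antiproliferative Btg1 gave -0.93. Cdkn1a, which encodes p21, was seen in 21 cells at P23-P24 and 13 at P21 (0.27).

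Serine synthesis was among the larger differences outside the cell cycle. Of 12 tested genes of serine and one-carbon metabolism, 11 were at least 1 higher, with a median of 1.54. That median was 0.98 as a log2 ratio of mean TPM. Psat1, the aminotransferase of the serine pathway, ran from 0 through a median of 38.5 to 183.1 TPM at P23-P24, and from 0 through a median of 0 to 75.8 TPM at P21, and was seen in 60 and 16 cells (3.69). Phgdh, the enzyme that starts the pathway, was seen in 62 and 45 cells (2.35), and Psph, which ends it, in 49 and 27 (1.87). Asns, asparagine synthetase, gave 2.04, and Mthfd1, an enzyme of the folate cycle, 1.71. Within the P23-P24 cells the number of Mcm subunits had a rho of 0.39 with Psat1 and 0.30 with Phgdh. With the number of all genes seen its rho was 0.46, and the part of this in the values for Psat1 and Phgdh was not tested.

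Of 15 tested hypoxia and glycolysis genes, 5 were at least 1 higher and 1 was at least 1 lower, with a median of 0.54. Pgk1, Eno1, Gapdh and Pkm, enzymes of the lower part of glycolysis, gave 2.25, 1.75, 1.43 and 1.27. Gapdh, seen in every cell of both ages, averaged 661.8 ± 207.2 TPM at P23-P24 and 265.4 ± 142.3 TPM at P21. Ndrg1, a stress and hypoxia gene of the same list, went the other way: it ran from 0 through a median of 0 to 132.2 TPM at P23-P24, and from 0 through a median of 41.9 to 1638 TPM at P21. It was seen in 22 cells at P23-P24 (32.4%) and 51 at P21 (75.0%), a difference of -3.14. Vegfa, the angiogenic factor, and Slc2a1, the glucose transporter, gave -0.53 and -0.30 and did not reach the call.

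In the list of ribosome biogenesis and MYC genes, calls went in both directions. Dkc1, which encodes dyskerin, gave 1.46, Bop1, a processing factor of the large subunit, 1.24, and Npm1, nucleophosmin, 0.73, and 5 of the 20 genes were at least 1 higher with a list median of 0.46. As a log2 ratio of mean TPM that median was -0.18. The 3 genes at least 1 lower were the transcription factors themselves. Mycn was seen in 30 cells at P23-P24 and 47 at P21 (-1.82), Myc in 39 and 50 (-1.57), and their partner Max in 48 and 59 (-1.22).

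Genes of the resting germ were lower as a group. Of 16 tested follicle stem cell and germ genes, none was at least 1 higher and 5 were at least 1 lower, with a median of -0.75. Lgr5 averaged 60.95 ± 62.33 TPM at P23-P24 and 191.9 ± 195.7 TPM at P21 (-1.36), in nearly equal numbers of cells. Foxi3, a transcription factor of placodes and germ, gave -1.50, Runx1, a factor of germ activation in mouse follicles, -1.36, Dkk3, a secreted protein, -1.77, and Vdr, the vitamin D receptor required for hair cycling, -1.21. Lhx2 and Sox9, stem cell factors, gave -0.13 and -0.65. Scaled to the spike-ins, Vdr was 0.17 higher at P23-P24.

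Ctsl, a lysosomal cysteine protease, had the largest difference of its list and of the lower named genes apart from the small nucleolar RNA Snord17. It ran from 0 through a median of 6.95 to 82.6 TPM at P23-P24, and from 0 through a median of 96.7 to 522.6 TPM at P21. It was seen in 47 cells at P23-P24 (69.1%, 56.7 to 79.8) and 62 at P21 (91.2%, 81.8 to 96.7), a difference of -3.23. The highest P23-P24 cell lay below the P21 median. Within P23-P24 cells Ctsl and the number of Mcm subunits had a rho of 0.09. The rho of that number was -0.42 with Krt15, a bulge and germ keratin, the lowest of the genes compared. It was -0.12 with Lgr5, -0.19 with Ndrg1, 0.14 with Mfap2 and 0.46 with the number of all genes seen. Among P21 cells the rho with Krt15 was 0.06. Of 18 lysosomal genes 5 were at least 1 lower and 17 were below 0, with a median of -0.50. The membrane protein Lamp2 gave -1.35, and was level between the ages (0.0049) when scaled to the spike-ins.

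Of 9 tested extracellular matrix genes, none was at least 1 higher and 3 were at least 1 lower, with a median of -0.53. Mfap2, a protein of microfibrils, was seen in 34 cells at P23-P24 and 56 at P21, with medians of 0.53 TPM at P23-P24 and 61.6 TPM at P21 (-2.78). Sparc, a collagen-binding protein, had medians of 23.3 TPM at P23-P24 and 89.5 TPM at P21 (-2.09), and 1 P21 cell reached 3096 TPM. The summed level of 8 fibroblast markers ran from 0 to 106.2 TPM at P23-P24 and from 0 to 9851 TPM at P21, with medians of 1.64 and 0 TPM, Pdgfra and Corin at 0 in every P23-P24 cell and Corin at 0 in every P21 cell. Without the 4 cells of each age that held at least 3 fibroblast, melanocyte, endothelial, immune or muscle markers, Sparc gave -2.09 and Mfap2 -2.94. Abi3bp, a matrix-binding protein, gave -1.88, and Tnc, tenascin C, 0.71.

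Other genes among the 12 lowest were Sepp1, a selenium carrier (-2.79), Anxa8, an annexin (-2.69), and Rnase4, a secreted ribonuclease (-2.68). They also included Esrp2, an epithelial splicing factor (-2.61), Dtx3, a deltex family ubiquitin ligase (-2.61), Wnk4, a kinase of ion transport (-2.51), and Kdm5b, a histone H3K4 demethylase seen in 20 cells at P23-P24 and 57 at P21 (-2.40). Basement membrane genes were mostly below 0 (10 of 15, median -0.42), but their median relative to that of all genes on the spike-in scale was 0.09. Among them Lamb3, a laminin chain of the epithelial basement membrane, gave -1.76 and was lower under both scalings, while Col17a1 (-1.18) and Cd151 (-1.07), both of hemidesmosomes, were 0.19 and 0.27 higher when scaled to the spike-ins.

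WNT response genes were not higher at P23-P24. Of 10 tested, none was at least 1 higher and 4 were at least 1 lower, with a median of -0.33, or -1.01 among cells with 5000 to 8000 genes. Lef1, a transcription factor of WNT signals, had a median of 5.73 TPM at P23-P24 and 29.2 TPM at P21 (-1.57). Axin2, a feedback inhibitor, had medians of 5.09 and 26.6 TPM at P23-P24 and P21 (-1.52), the inhibitor Nkd1 gave -1.19, and the secreted WNT inhibitor Wif1 -1.08. Apcdd1, another inhibitor, was seen in 25 cells at P23-P24 and 8 at P21 (0.86). The ligand Wnt10b was seen in 20 and 31 cells (-1.10), Wnt10a in 23 and 17 (0.12), and the co-receptor Lrp5 gave 0.89.

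Hedgehog genes showed differences near or below 1 in size, and the 1 call among them depended on the cells kept. Gli1, a target and effector of the pathway, was seen in 59 cells at P23-P24 and 51 at P21 (0.26). Ptch1, the receptor and a target, had medians of 21.3 TPM at P23-P24 and 10.1 TPM at P21 (0.92), and the transducer Smo gave 0.56. Gli2 gave -0.94, Gli3 -0.35, and Sufu, the inhibitor that holds Gli proteins, -1.05, the 1 call among 7 tested. Without the cells that held at least 3 markers of other cells, Sufu gave -0.90 and Ptch1 1.04. The ligand Shh was seen in 4 cells at P23-P24 and 6 at P21, and Hhip, a ligand trap, in 2 cells at P23-P24 and was listed at 0 in every P21 cell.

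BMP response genes did not move in 1 direction. Id3, an inhibitor of differentiation factors induced by BMP, was at least 1 higher (1.02, seen in 68 and 62 cells at P23-P24 and P21), Id2 was at least 1 lower (-1.16), and Id1 and Id4 gave 0.51 and -0.28. Among the signal transducers Smad1 gave -0.07, Smad5 -0.73 and Smad9 0.24, and the inhibitory Smad6, below the 30% filter at both ages, and Smad7 gave -0.02 and -0.04. Bmp2 was seen in 30 cells at P23-P24 and 51 at P21 (-1.41). Of the secreted BMP inhibitors, Sostdc1 was seen in 45 and 31 cells (1.202), Fst in 29 and 30 (-0.48), and Fstl1 in 33 and 46 (-1.04).

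FGF response genes had no call among 7 tested, with a median of -0.05, or 0.23 relative to the median gene on the spike-in scale. Dusp6, a phosphatase that dampens ERK, gave -0.23, and the ETS factors Etv4 and Etv5 -0.18 and 0.72. The inhibitors Spry1, Spry2 and Spry4 gave 0.39, 0.84 and 0.23, and Spred1, Spred2 and Spred3 gave -0.05, -0.63 and -0.52. Spry4 and Spred3 were below the 30% filter, and Etv1 was listed at 0 in every cell of both ages. The receptors were below 0, with Fgfr3 at -1.56, Fgfr1 at -1.16 and Fgfr2 at -0.58; Fgfr1, seen in every cell, was 0.21 higher at P23-P24 when scaled to the spike-ins. In the TGF-beta list Tgfb3, a ligand, gave 1.29 (43 cells at P23-P24 and 22 at P21), while Tgfbi, a matrix protein induced by the pathway, and Ltbp2, a latency protein family member, gave -1.70 and -1.51. Of 9 tested Notch genes, Dtx3 was the 1 call, and Hes1, a target, gave 0.64; the list median was -0.35, or 0.09 relative to the median gene on the spike-in scale.

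Of 10 tested matrix and lineage factors none was at least 1 higher and 2 were at least 1 lower, Sox21, a shaft factor, at -1.11 and Msx2, a homeobox target of BMP signals, at -1.05, with a list median of 0.02. Hoxc13, a regulator of shaft keratins, was seen in 52 cells at P23-P24 and 37 at P21 (0.36). None of the 14 inner root sheath and shaft genes was seen in 30% of the cells of either age. Krt28, an inner root sheath keratin, was seen in 10 cells at P23-P24 and 3 at P21, and Krt27 in 13 and 10. Heat shock and immediate early genes had 4 of 17 at least 1 lower and none at least 1 higher, with 9 above 0 and a median of 0.04. The lower ones included Hspa1a (-1.92), a chaperone, Ier2 (-1.35), an early response gene, and Dusp1 (-1.18), a stress phosphatase.

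The 16 hair germ cells sorted at P25-P27, with other title prefixes and the same annotated type as the P23-P24 cells, did not hold the replication set. They had a median of 5367.5 genes seen (4702 to 5718), against 6984 at P23-P24, and among P23-P24 cells the number of subunits and of genes seen had a rho of 0.46; the part of this in the values that follow was not tested. Mcm5 was seen in 6 of 68 cells at P21, 58 of 68 at P23-P24 and 2 of 16 at P25-P27. Cdk1 was seen in 1, 35 and 0 cells in the same order of ages, and at least 4 Mcm subunits in 7, 55 and 0 (0%, 0 to 20.6). Psat1 differed from these, with 16 of 68 cells at P21, 60 of 68 at P23-P24 and 15 of 16 at P25-P27. Ctsl averaged 124.7 TPM at P21, 12.2 TPM at P23-P24 and 1.605 TPM at P25-P27. In the 39 bulge cells of P21 Mcm5 was seen in 7.69% and at least 4 subunits in none (0%, 0 to 9.03), and Mcm6 was seen in 20.5% of bulge cells, against 39.7% of P21 germ cells.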

How the data were processed

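Values are TPM that the authors deposited, 1 column per cell, 46609 rows by 398 columns, each summing to 1000000 within rounding. Per the submitters' processing notes, Bowtie2 2.2.9, RSEM 1.2.30 and the build mm10 were used, with no role stated; the gene annotation is not given in the sources used here. TPM keeps no read depth, so the depth per cell is unknown. The P30 tables were not used.

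A gene counted as seen at a TPM of 1 or more. Genes were tested if at least 30% of cells of 1 age held them, and 92 spike-in rows, 361 ribosomal RNA rows and the mitochondrial rows were left out. The pseudocount was 1 TPM, and a gene was called at a difference of 1 or more, a rule of size and not a test. On this scale the change of low genes is understated. Biotypes came from GENCODE M21 on GRCm38, the assembly named mm10, and promoters from RefSeq on GRCm38.p6. No doublet caller was run on these plate-sorted cells. Python 3.11.15, numpy 2.4.6, pandas 2.3.3 and scipy 1.17.1 were used. The comparison of groups was checked on cells of both ages mixed and dealt out again, with known folds put into some genes. The other steps had no such check.

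The cells and the 38 lists of 514 genes were chosen with earlier results of these data known. Named genes are the 4 markers, the 12 with the largest difference in each direction (without predicted models, pseudogenes and sort genes), up to 5 per list, Mcm2 to Mcm7, all hedgehog, BMP response and FGF response genes and the sort genes. Some of these are not reported here, and other list members, such as Pcna, Gmnn, Ccnd1 and Npm1, were added after their values were seen. Alternatives were other pseudocounts, filters, scalings and choices of cells. Scaling to spike-ins, and leaving out cells with Xist and a Y-linked gene or with markers of other cells, were added after the data were seen.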

Additional observations from a re-analysis of the deposited data

How the results depend on the processing

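With a pseudocount of 0.1 TPM 24.1% of genes were at least 1 higher and 13.3% at least 1 lower (2335 and 1290 genes, median 0.20), against 10.4% and 6.27% as reported (1009 and 608 genes). With 10 TPM they were 1.54% and 0.97%, and none of the list medians reached 1, against 8 as reported. Rescaled without ribosomal, mitochondrial and spike-in rows, 20.3% were higher (1972 genes, median 0.23), and less that median 12.2% were lower (1182 genes). As a log2 ratio of mean TPM, 4.84% were higher and 13.8% lower (469 and 1338 genes, median -0.37), and 6 list medians reached 1. Scaled to the spike-ins, 38.96% were higher and 0.732% lower (3777 and 71 genes, median 0.79), and 14 list medians reached 1. Scaled in that way 6 named genes turned to higher at P23-P24: Cd151 0.27, Col17a1 0.19, Ctsa 0.22, Fgfr1 0.21, Lamp2 0.0049 and Vdr 0.17. The construction of these scales sets the counts, and the cause of the spike-in difference was not tested. Of 53 named genes called higher, 53 remained so when scaled to the spike-ins, and of 51 called lower, 14 remained so, or 40 relative to the spike-in median.

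Ctsl was seen at a TPM of 5 or more in 55.9% of P23-P24 cells, and Mcm5 at any TPM above 0 in 19.1% of P21 cells. Cdk1 was seen in 0% of P21 cells among those with 5000 to 8000 genes, and in 0% without cells that held both Xist and a Y-linked gene. The share of cells with at least 4 Mcm subunits lay between 77.4% and 80.9% at P23-P24 and between 4.41% and 11.8% at P21 over these choices. No paired analysis was possible because the plates hold different cells and no label names an animal.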

Other observations

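Rows of miRNAs, miscellaneous RNAs and lincRNAs were at least 1 lower at P23-P24 more often than protein-coding genes, a grouping chosen after the values were seen. Of 25 tested miRNA rows 19 were at least 1 lower and 2 at least 1 higher, with a median of -1.21, and of 13 miscellaneous RNA rows 9 were at least 1 lower, with a median of -1.51. Whether the reads of these rows came from mature small RNAs or from longer transcripts was not tested. The tested lincRNA rows gave 16 lower and 1 higher, against 509 lower and 970 higher among 9009 protein-coding genes. The 5 tested snoRNA rows went the other way by their median of 0.80, and 1 of them was at least 1 lower, Snord17, seen in 30 cells at P23-P24 and 64 at P21 (-3.54). Ribosomal RNA rows took a median of 64.9% of TPM at P23-P24 and 54.3% at P21, and their part in this difference was not tested.

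In all, 26 of the 9695 tested rows were listed at 0 in every P21 cell, and no tested row was listed at 0 in every P23-P24 cell. A row at 0 in every cell of an age could pass the filter on low values only through the other age. The 26 rows were thus tested because P23-P24 cells held them, and no conclusion is drawn from their number. Of these 26, 8 were members of the gene lists used here. The lists do not hold every cell cycle gene, so this is not the share of cell cycle genes among the 26. Rpl3-ps1, annotated as a processed pseudogene, stood apart, with 66 of 68 cells and a mean of 204.1 TPM at P23-P24, and 0 in every cell of P21 hair germ, P21 bulge and P25-P27 hair germ. Reads of such a copy cannot be told apart with certainty from those of its parent gene. Whether the P23-P24 libraries were aligned or annotated in another way than the others was not tested, and such a step would bear on other P23-P24 values too.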
